A study of Homo sapiens with 12 samples.

Results

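The genes described are COL1A1, COL1A2 and COL3A1, which encode the chains of the fibrillar collagens of types I and III, and POSTN, MATN2, OLFML2A and OLFML2B, which encode secreted proteins of the matrix around such fibrils. Every probe set annotated to 1 of these 7 genes alone was taken, which gave 14 of the 16376 probe sets on the arrays. The genes were chosen because their levels were higher in SF539 cells with siRNAs against PARK2, and OLFML2A and POSTN were known in both lines, so those values are a description with no test. The 2 established human glioblastoma lines SNB19 and SF539, both grown with serum, were profiled on 12 Affymetrix arrays. Each line received a scramble siRNA, PARK2 siRNA#1 or PARK2 siRNA#2 with the lipid reagent Lipofectamine RNAiMAX and was harvested at 48 h, and each of the 6 groups held 2 arrays. PARK2 encodes parkin, a ubiquitin ligase that acts on damaged mitochondria. Its level is not analysed here, so the knockdown was not checked, and without untransfected cells among the arrays a difference can lie with the scramble sample as well as with the PARK2 siRNA. Nothing in the labels says that replicates were separate cultures, so every p-value reflects the spread among these arrays alone, part or all of which may be technical.

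Fibrillar collagens are made as procollagens whose chains wind into a triple helix. Type I collagen joins the products of COL1A1 and COL1A2, while type III collagen is built from COL3A1 chains only, and both are laid down in connective tissue by fibroblasts and related mesenchymal cells. Periostin, the product of POSTN, binds collagen and fibronectin and favours collagen cross-linking. Matrilin-2, from MATN2, forms filaments that link matrix components. The olfactomedin-like proteins of OLFML2A and OLFML2B are secreted glycoproteins that bind proteoglycans. In the brain, fibrillar collagen is largely held around vessels and in the meninges, and its genes are among those that mark mesenchymal states of glioblastoma.

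The values are log2 probe set signals without a detection call. The lower quartile of the arrays lay between 3.93 and 4.02, and values near or under it have little signal over background, so changes from there are bounded by it. The medians of the arrays ran from 5.94 to 6.14. The correlation of replicates, r, ran from 0.995 to 0.998 over probe sets in 5 groups and was 0.991 in SF539 siRNA#2, whose median SD between replicates of 0.126 stood above the 0.0658 to 0.0914 of the other groups. In SF539, replicate 2 of siRNA#2 lies far above replicate 1 for most of the genes, so the change of each gene in that line is also given without that array. Of the 10 astroglial markers measured, 4 had a mean above the lower quartile in SF539 with scramble siRNA, and 8 in SNB19. The 4 in SF539 were VIM, bright in both lines, SLC1A3 (6.26), ALDH1L1 (5.48) and SOX2 (4.73). GFAP (3.93), S100B (3.80) and FABP7 (3.79) lay near or below the quartile there, against 6.90, 7.38 and 10.56 in SNB19. AQP4 and OLIG2 lay below it in both lines with scramble siRNA.

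In SF539 all 7 genes were higher in every PARK2 siRNA array than in either scramble array, and siRNA#2 stood above siRNA#1. In SNB19 every siRNA array also lay above both scramble arrays for OLFML2A and OLFML2B, and by a small margin for COL1A2. In that line 24.2% of all genes lay above both scramble arrays in this way and 26.4% below. There siRNA#2 stood above siRNA#1 for OLFML2A and not for OLFML2B or COL1A2. In bulk RNA, more cells that express a gene and more RNA of it per cell cannot be told apart. Over the 4 siRNA arrays of SF539, 13.7% of the 8545 genes lay above both scramble arrays, and 1.11% were at least 2-fold higher in the mean of both siRNAs. The genes were chosen on that contrast, so nothing is read from their count.

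**Figure D1:**
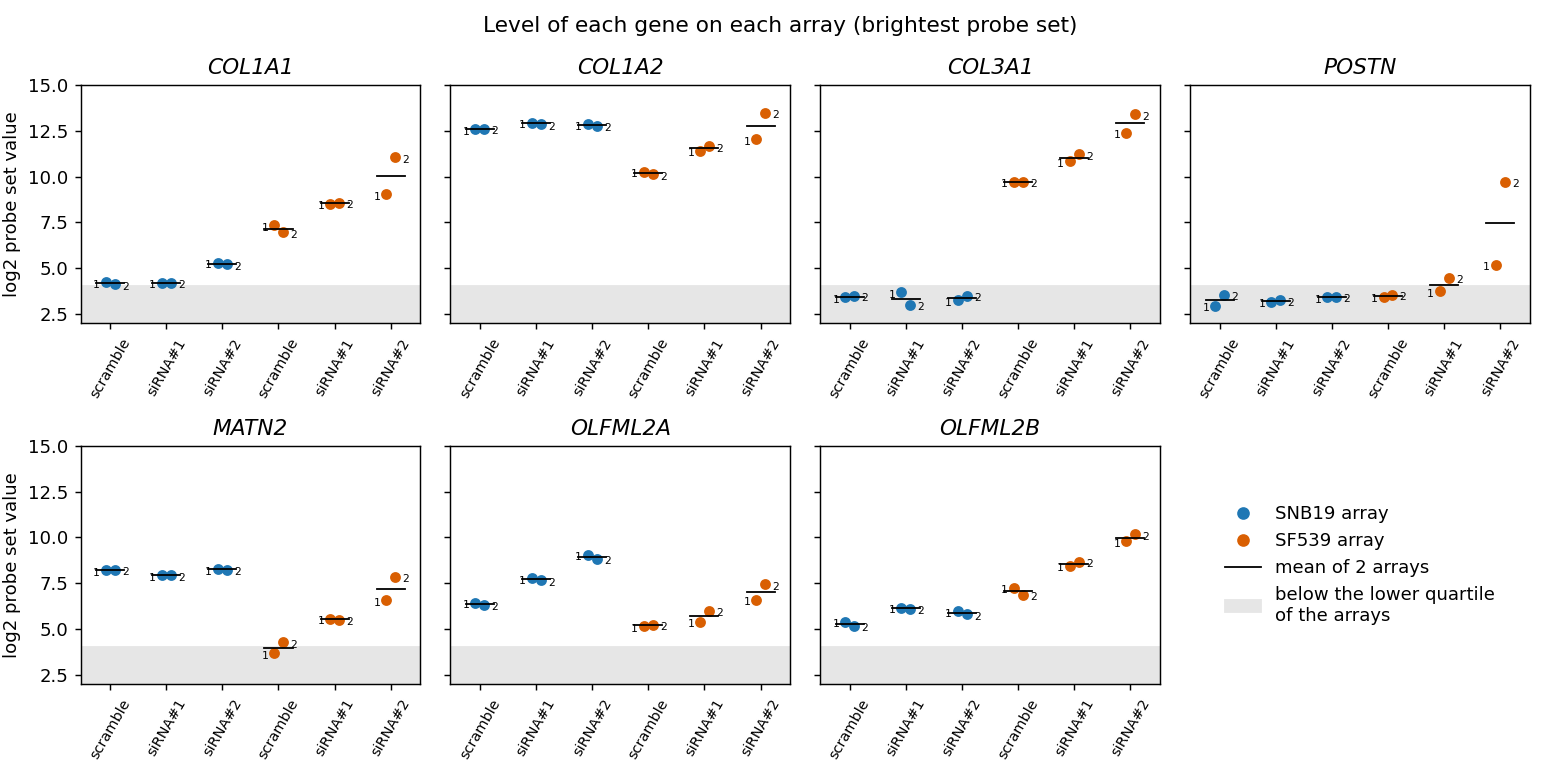
Log2 signal of the brightest probe set of each gene (y axis) by group (x axis), with each array as a point numbered by replicate, the mean of the 2 arrays as a line and the grey band below the lower quartile of the arrays. The SF539 points climb from scramble to siRNA#1 to siRNA#2 in all 7 panels, and replicate 2 of SF539 siRNA#2 is the highest SF539 array in each.

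COL1A1 encodes the alpha 1 chain of type I collagen. On its brightest probe set over all arrays, 202310_s_at, the SF539 scramble arrays read 7.33 and 6.96, the siRNA#1 arrays 8.52 and 8.58, and the siRNA#2 arrays 9.03 and 11.05. The groups did not overlap, and the siRNA#2 arrays differed from each other by more than siRNA#1 differed from scramble. The fitted change was 1.40 ± 0.47 (SE) with siRNA#1, a fold of 2.64, and 2.89 ± 0.47 with siRNA#2, a fold of 7.41. That SE is pooled over the 6 groups, while the SD of the pair was 0.04 with siRNA#1 and 1.43 with siRNA#2. Set against scramble, siRNA#2 replicate 1 alone was higher by 1.88.

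In SNB19 the same probe set read 4.24 and 4.13 with scramble, 4.20 and 4.21 with siRNA#1, and 5.29 and 5.21 with siRNA#2. Both siRNA#2 arrays lay above the other 4, which stood close to the lower quartile of the arrays. The change with siRNA#2 was 1.06 ± 0.47 and did not pass limma's test over all 12 arrays (adjusted p = 0.126), where 29.7% of all genes were called. The SE of that fit takes in the SF539 siRNA#2 pair, whose arrays lay 2.02 apart. With the SNB19 arrays alone limma gave an adjusted p of 0.000124, and over the 22 alternatives it ran from 0.000124 to 0.304, with 5 below the threshold of 0.05. For the mean of both siRNAs the change was 0.54 ± 0.41 (limma, adjusted p = 0.366), with 0.000809 from the SNB19 arrays alone, 0.00253 without either SF539 siRNA#2 array, and a range from 0.000809 to 0.603.

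The other COL1A1 probe sets were not alike. Probe set 202311_s_at gave 4.64 and 4.71, then 5.74 and 5.68, then 6.70 and 9.01 in SF539, the same order as above. Probe set 202312_s_at stayed between 4.72 and 5.14 on all 12 arrays, and its 4 SF539 siRNA arrays lay below both scramble arrays, as for 14.5% of all genes, with a change of -0.22 ± 0.10 for the mean of both siRNAs. The COL1A1 values thus depend on which probe set is read.

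COL1A2 encodes the alpha 2 chain, which joins the alpha 1 chain in type I collagen. In SF539 its probe set 202404_s_at read 10.27 and 10.12 with scramble, 11.42 and 11.64 with siRNA#1, and 12.02 and 13.47 with siRNA#2. The arrays of the 3 groups were separate, and the change was 1.34 ± 0.34 with siRNA#1, 2.55 ± 0.34 with siRNA#2 and 1.83 for siRNA#2 replicate 1 alone. The second probe set, 202403_s_at, followed with 9.94 and 10.00, 11.31 and 11.43, and 11.76 and 13.07.

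SNB19 differed from SF539 in its COL1A2 level under scramble, at 12.58 and 12.61 on 202404_s_at. Its siRNA#1 arrays read 12.95 and 12.86 and its siRNA#2 arrays 12.86 and 12.79, all above both scramble arrays, as for 24.2% of all genes. The change of 0.27 ± 0.30 in the mean of both siRNAs did not pass limma's test (adjusted p = 0.545), and it did with the SNB19 arrays alone (adjusted p = 0.0117), without either SF539 siRNA#2 array (0.0238) and with a range over the alternatives from 0.0117 to 0.732.

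COL3A1 encodes the chain of type III collagen, which forms fine fibrils together with type I. On 215076_s_at SF539 read 9.70 and 9.70 with scramble, 10.85 and 11.21 with siRNA#1, and 12.39 and 13.40 with siRNA#2. The siRNA#2 arrays lay above the siRNA#1 arrays by more than the gap within either pair, and the change was 1.32 ± 0.31 and 3.20 ± 0.31 for siRNA#1 and siRNA#2, and 2.69 for siRNA#2 replicate 1 alone. Probe set 211161_s_at moved from 6.75 and 6.91 to 8.24 and 8.35 and then to 10.91 and 12.33, a fold of 27.6 with siRNA#2 and of 16.9 with its replicate 1 alone, and 201852_x_at from 8.21 and 8.36 to 9.52 and 9.79 and to 11.28 and 12.75. These 3 probe sets gave the same order with different sizes.

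In SNB19 COL3A1 was at the lower end of the arrays, between 2.99 and 3.68 on 215076_s_at, with siRNA arrays on both sides of scramble and a change of -0.09 ± 0.26 (limma, adjusted p = 0.828). The fourth probe set, 215077_at, read between 2.69 and 3.03 in both lines. It lay below both scramble arrays on all 4 SNB19 siRNA arrays, as for 26.4% of all genes, a change of -0.23 ± 0.08 that did not pass the test over probe sets (limma, adjusted p = 0.0616).

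**Figure D2:**
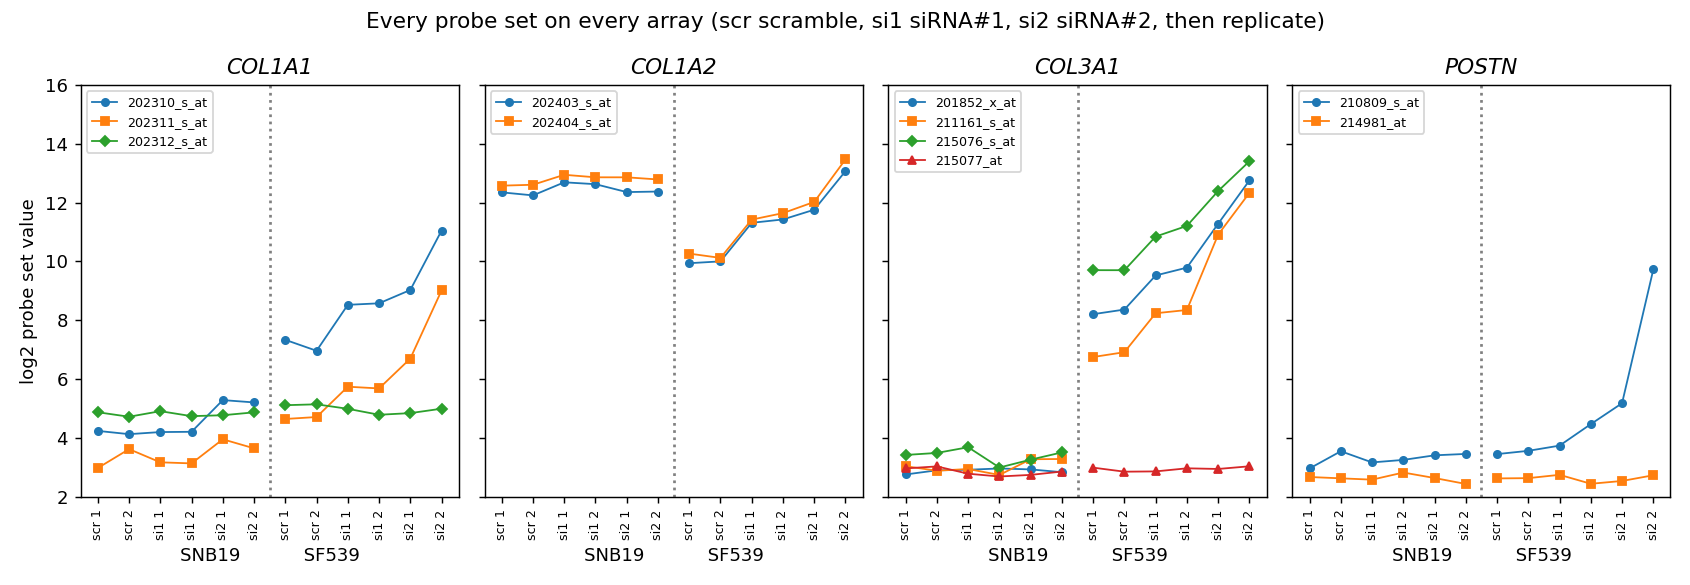
Log2 signal (y axis) of every probe set of the 4 genes with several, on each of the 12 arrays (x axis), with SNB19 left of the dotted line and SF539 right of it and lines joining the arrays of 1 line. Probe sets 202312_s_at, 215077_at and 214981_at stay flat in SF539 where the other probe sets of COL1A1, COL3A1 and POSTN climb.

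Periostin is secreted by fibroblasts and mesenchymal tumour cells. POSTN on 210809_s_at read 3.45 and 3.56 with scramble, 3.74 and 4.47 with siRNA#1, and 5.18 and 9.73 with siRNA#2 in SF539. The siRNA#2 value rests on 1 array: replicate 2 stood 4.55 above replicate 1, and without it the siRNA#2 difference from scramble was 1.67 against 3.95 with both. The scramble arrays and 1 siRNA#1 array were below the lower quartile, so the size of the fold is bounded there. In SNB19 POSTN read 2.96 to 3.55 on all 6 arrays, and its other probe set, 214981_at, 2.43 to 2.82 over both lines, all below the lower quartile.

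MATN2, the gene of the filament-forming matrilin-2, had opposite positions in the 2 lines under scramble. SNB19 read 8.21 and 8.24 and SF539 3.67 and 4.27 on 202350_s_at. In SF539 siRNA#1 gave 5.57 and 5.49 and siRNA#2 6.56 and 7.85, a change of 1.56 ± 0.33 and 3.24 ± 0.33, with 2.59 for siRNA#2 replicate 1 alone. The scramble arrays straddled the lower quartile, and every siRNA array was above both.

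In SNB19 MATN2 read 7.92 and 7.93 with siRNA#1 and 8.27 and 8.23 with siRNA#2. The siRNA#1 arrays lay below scramble and the siRNA#2 arrays beside it. The siRNA#1 change of -0.30 ± 0.33 did not pass limma's test (adjusted p = 0.578) but did with the SNB19 arrays alone (0.0115), within a range from 0.0115 to 0.73. For the mean of both siRNAs it was -0.14 ± 0.29 (limma, adjusted p = 0.771).

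OLFML2A had higher values with PARK2 siRNAs in both lines. SNB19 read 6.43 and 6.33 with scramble, 7.76 and 7.66 with siRNA#1, and 9.05 and 8.83 with siRNA#2 on 213075_at, a change of 1.33 ± 0.25 and 2.56 ± 0.25. SF539 read 5.16 and 5.23, then 5.40 and 5.98, then 6.59 and 7.45, a change of 0.50 ± 0.25 and 1.82 ± 0.25. All siRNA arrays were above the scramble arrays in both lines, as for 24.2% of all genes in SNB19 and 13.7% in SF539. Of the siRNAs, siRNA#2 gave the larger value in each line.

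OLFML2B is the gene closest to OLFML2A by name and was the 1 of the 5 genes tested in SNB19 that passed, in a comparison that called 32.8% of all genes. SNB19 read 5.40 and 5.17 with scramble, 6.17 and 6.09 with siRNA#1, and 5.97 and 5.81 with siRNA#2 on 213125_at. Its level rose by 0.72 ± 0.15 in the mean of both siRNAs, a fold of 1.65 (limma, adjusted p = 0.00367), and was higher on 4 of 4 siRNA arrays. With siRNA#1 it rose by 0.84 (limma, adjusted p = 0.00425), where 26.1% of all genes were called, and with siRNA#2 by 0.60 (limma, adjusted p = 0.0219). Leaving out SNB19 scramble replicate 2 ended the call for the mean (adjusted p = 0.0506), and the siRNA#2 call was also lost without either siRNA#2 array, with adjusted p-values from 0.0567 to 0.137. SF539 read 7.25 and 6.88, 8.44 and 8.68, and 9.78 and 10.17, a change of 1.49 ± 0.17 and 2.91 ± 0.17, and here the siRNA#2 replicates lay only 0.39 apart.

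**Figure D3:**
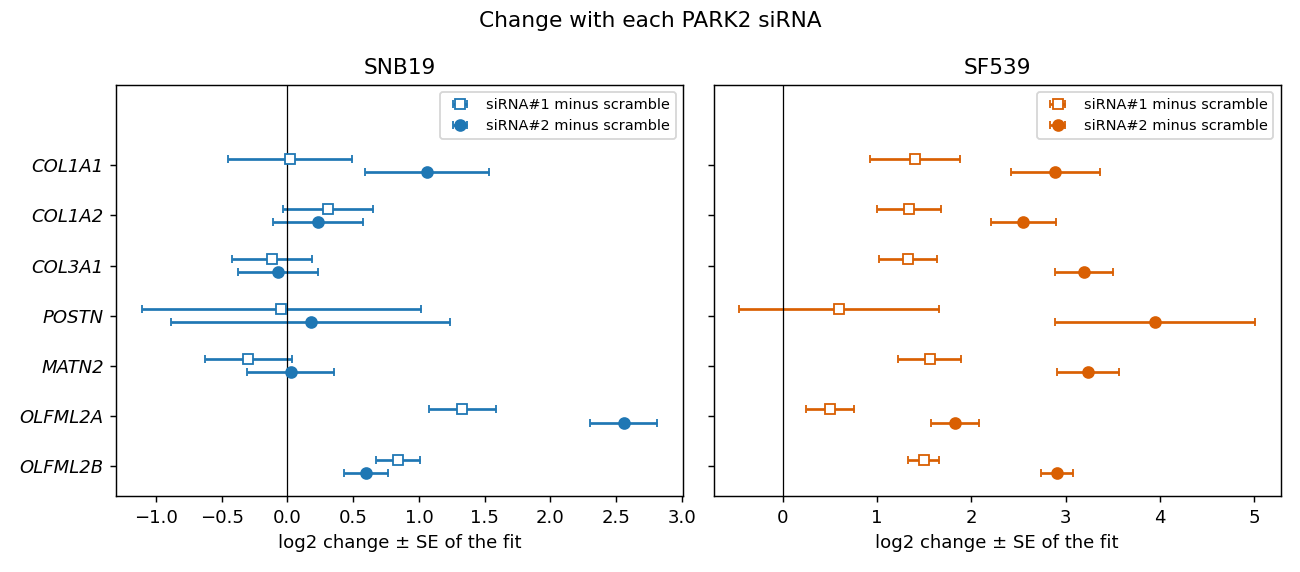
Fitted log2 change of each gene (brightest probe set) with siRNA#1 (open squares) and siRNA#2 (filled circles) against scramble on the x axis, with the SE of the 6-group fit as bars, SNB19 left and SF539 right. In SF539 the siRNA#2 value lies right of the siRNA#1 value for all 7 genes, while in SNB19 OLFML2A stands apart at 1.33 and 2.56.

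The SF539 order was scramble below siRNA#1 below siRNA#2 replicate 1 below siRNA#2 replicate 2 in all 7 genes, as in 5.10% of the genes tested. Replicate 2 exceeded replicate 1 by 2.02 for COL1A1, 1.45 for COL1A2, 1.01 for COL3A1, 1.29 for MATN2, 0.86 for OLFML2A and 0.39 for OLFML2B. The median over the 7 genes was 1.29, where the median over all genes was -0.0033 and 1.97% of genes reached 1, POSTN being ranked 3 from the highest of 8545. In the other 5 groups the median gap of the 7 genes lay between -0.08 and 0.25, and none of the 7 reached 1. The genes were chosen on SF539 values that include these siRNA#2 arrays, which favours this order and these gaps. Nothing is therefore read from them beside the shares of all genes. Without replicate 2, the change for the mean of both siRNAs in SF539 was 1.64 for COL1A1, 1.58 for COL1A2, 2.01 for COL3A1, 1.14 for POSTN, 2.07 for MATN2, 0.95 for OLFML2A and 2.10 for OLFML2B, against 2.15, 1.95, 2.26, 2.27, 2.40, 1.16 and 2.20 with it. All stayed positive. Which replicate stands closer to the siRNA's usual outcome was not tested.

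**Figure D4:**
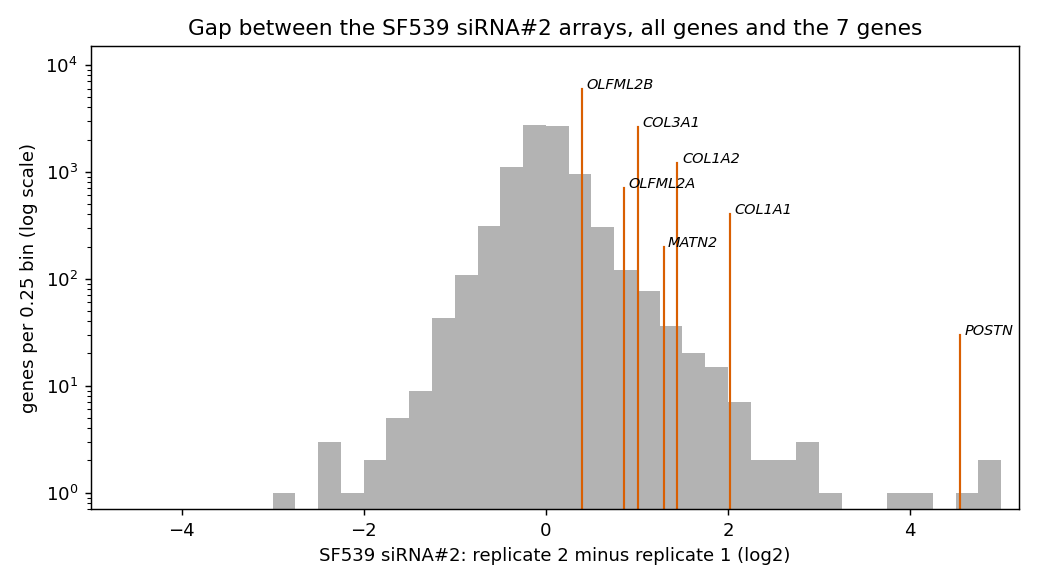
Number of genes (y axis, log scale) by the log2 difference between SF539 siRNA#2 replicate 2 and replicate 1 (x axis), with an orange line for each of the 7 genes. The lines run from 0.39 for OLFML2B to 4.55 for POSTN, all right of the centre of the distribution.

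With scramble siRNA the lines differed in which of these genes they expressed. SF539 minus SNB19 was 6.25 for COL3A1, 2.97 for COL1A1, 1.78 for OLFML2B and 0.25 for POSTN, against -4.25 for MATN2, -2.40 for COL1A2 and -1.18 for OLFML2A. SNB19 thus held COL1A2 and MATN2 with COL3A1 below the lower quartile of the arrays, while SF539 held COL1A1, COL1A2 and COL3A1 together.

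Start-site sequences from RefSeq (GRCh38.p14) are shown for 3 of the 7 genes, POSTN, OLFML2A and OLFML2B. Being higher with PARK2 siRNAs in SF539 does not set these 3 apart, as all 7 genes were. Start sites of the other genes, MATN2 among them, were not examined. Each line below is the 250 bases before the start, 5′ to 3′ on the gene's strand, with capitals for matches on either strand to TATAAA (the TATA box), CCAAT (the CCAAT box), TGANTCA (the AP-1 motif), CAGAC (the motif bound by SMAD proteins) or GGAATG (the TEAD motif). Read from the other strand, GGAATG appears as CATTCC, and the TATA box as TTTATA. They lie at chr13:37598769-37599018 on the minus strand for POSTN, chr1:162023870-162024119 on the minus strand for OLFML2B, chr9:124776883-124777132 on the plus strand for OLFML2A and chr9:124800624-124800873 on the plus strand for its second start.
POSTN: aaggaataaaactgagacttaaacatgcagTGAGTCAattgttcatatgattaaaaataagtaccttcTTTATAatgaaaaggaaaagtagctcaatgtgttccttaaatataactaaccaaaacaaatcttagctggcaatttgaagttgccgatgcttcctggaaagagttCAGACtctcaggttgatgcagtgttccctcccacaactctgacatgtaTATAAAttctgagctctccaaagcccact
OLFML2B: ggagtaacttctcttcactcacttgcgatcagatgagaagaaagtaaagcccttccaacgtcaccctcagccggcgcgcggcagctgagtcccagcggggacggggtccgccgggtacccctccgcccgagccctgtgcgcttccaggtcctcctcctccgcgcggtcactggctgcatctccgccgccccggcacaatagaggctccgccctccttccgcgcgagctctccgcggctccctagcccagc
OLFML2A: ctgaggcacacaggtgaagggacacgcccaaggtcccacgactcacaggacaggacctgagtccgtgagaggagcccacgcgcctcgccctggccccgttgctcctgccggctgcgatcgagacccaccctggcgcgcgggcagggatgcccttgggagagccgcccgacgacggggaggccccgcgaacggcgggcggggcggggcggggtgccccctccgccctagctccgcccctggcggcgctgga
OLFML2A, second start: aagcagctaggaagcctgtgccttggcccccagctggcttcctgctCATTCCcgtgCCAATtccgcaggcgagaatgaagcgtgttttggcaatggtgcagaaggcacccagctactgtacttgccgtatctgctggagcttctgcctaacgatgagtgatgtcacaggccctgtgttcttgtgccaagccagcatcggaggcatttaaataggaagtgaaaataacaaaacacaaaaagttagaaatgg
The POSTN window, at 36.4% GC, held the TATA box 29 bases before the start, a second one reading TTTATA on the other strand, the AP-1 motif as TGAGTCA, and the SMAD motif. The OLFML2B window (67.6% GC) and the first OLFML2A window (75.2% GC) held none of these letters, and the second OLFML2A window held the CCAAT box and the TEAD motif. Of 35116 windows of that length, 10.7% held the TATA box, 32% the CCAAT box, 6.57% the AP-1 motif, 38% the SMAD motif and 11.9% the TEAD motif, and their median GC was 58.0%. A match is a description of letters.

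Beyond the 7 genes, 106 of 137 listed genes of collagen fibrils, their processing, receptors and turnover were measured. In SNB19 16 rose and 18 fell (15.1% and 17.0%, against 15.5% and 17.4% of all genes), so the lists stood near the background. In SF539 15 rose and 5 fell (14.2% and 4.72%, against 5.80% and 4.01%). The median change over the listed genes was 0.03 in SNB19 and 0.15 in SF539, beside -0.01 and -0.02 over all genes. With each array centred on its median the counts became 22 up and 14 down in SNB19, where 24.6% and 11.4% of all genes were called, and 13 up and 9 down in SF539, against 4.70% and 5.51%. Leaving out SF539 siRNA#2 replicate 1 gave 47 up and 9 down in SF539, against 12.1% and 11% of all genes, and leaving out replicate 2 gave 21 up and 9 down, against 9.37% and 6.75%. Without 1 scramble or siRNA#1 array of SF539 there were 7 or 8 up and 4 down, against 3.02% to 3.64% and 1.32% to 2.07%. In SNB19 leaving out either SF539 siRNA#2 array gave 27 up and 25 down, against 19.8% and 21.8%. With the arrays of 1 line alone SNB19 gave 26 up and 27 down, against 20.2% and 22.5%, and SF539 2 up and 3 down, against 1.21% and 0.726%. The number of listed genes called thus differed between settings, as did the share of all genes called, and the 2 did not move strictly together. A share of called genes is not a test of the lists. In 18 of the 33 genes named from the lists the change differed between the lines in limma's test of that difference, against 19.1% of all genes. The 33 were picked among called genes, so the share has no bearing on the lists. Of the 17 genes named in SF539, 4 passed with siRNA#1 by itself (ADAMTS3, FBLN1, FBN2 and TGFBI), where 2.73% of all genes were called, and 16 with siRNA#2 by itself, where 15.2% were. With the SF539 arrays alone 4 of the 17 passed, ADAMTS3, ITGA2, INHBA and TIMP3.

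Among the other collagens of fibrils, 4 of 9 measured genes rose in SNB19 and 2 of 9 in SF539, and none fell in either. COL14A1, a collagen that coats fibrils, rose by 1.71 ± 0.20 in SNB19 (limma, adjusted p = 0.000143). COL5A1, which helps start type I fibrils, rose by 0.88 ± 0.24 in SNB19 (limma, adjusted p = 0.0177) and by 0.95 ± 0.24 in SF539 (limma, adjusted p = 0.0356). COL2A1 rose by 0.47 in SNB19 and COL16A1 by 1.13 in SF539 (limma, adjusted p = 0.0141 and 0.0287). Leaving out 1 array ended several of these: COL2A1 without SNB19 scramble replicate 2 (0.133), COL5A1 in SNB19 without either SNB19 scramble array (0.0805 to 0.107), COL16A1 without any scramble or siRNA#1 array of SF539 (0.0699 to 0.157), and COL5A1 in SF539 without any 1 of the 10 arrays other than SF539 siRNA#2 (0.0575 to 0.163). With probe sets averaged COL5A1 passed in neither line (0.0628 in SNB19 and 0.0522 in SF539).

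For collagen synthesis and cross-linking, 3 of 21 genes rose and 5 fell in SNB19, and 4 rose and none fell in SF539. PLOD1, a lysyl hydroxylase of collagen, fell by 0.96 in SNB19, while TLL2, of the tolloid proteinases, and CRTAP, of the prolyl 3-hydroxylation complex, rose by 0.93 and 0.56 (limma, adjusted p = 0.00044, 0.00028 and 0.000285). In SF539 the procollagen N-proteinases ADAMTS3 and ADAMTS2 rose by 1.06 and 1.25 and PCOLCE, an enhancer of procollagen C-proteinase, by 1.34 (limma, adjusted p = 0.000645, 0.0169 and 0.00842). PCOLCE lost its call without SF539 scramble replicate 2 (0.0673), and ADAMTS2 without either SF539 scramble array or siRNA#1 replicate 2 (0.054 to 0.12) or without both SF539 siRNA#2 arrays (0.103).

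Of 24 fibril-binding matrix proteins, 3 rose in each line and none fell. In SNB19 these were TNC, the adhesion-modulating tenascin-C, FBN1, the main microfibril protein, and FMOD, a small proteoglycan that binds collagen, with changes of 0.88, 1.23 and 0.41 (limma, adjusted p = 0.000393, 0.014 and 0.0265). The TNC value changed to -0.05 when its probe sets were averaged, FBN1 lost its call without either SNB19 scramble array (0.0678 to 0.0945), and FMOD without scramble replicate 1, siRNA#1 replicate 1 or siRNA#2 replicate 2 (0.0748 to 0.267). In SF539 FBLN1, FBN2 and LUM, of the fibulin, fibrillin and leucine-rich proteoglycan families, rose by 0.72, 0.57 and 0.98 in the mean of both siRNAs (limma, adjusted p = 0.00374, 0.00649 and 0.0323). FBN2 lost its call without SF539 scramble replicate 2 (0.0591), and LUM without any scramble array of either line or SF539 siRNA#1 array (0.0543 to 0.202). LUM changed by 0.03 with siRNA#1 (limma, adjusted p = 0.973) and by 1.93 with siRNA#2 (limma, adjusted p = 0.00224), and without both siRNA#2 arrays its adjusted p was 0.938, so its rise is that of siRNA#2.

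Of the 7 measured relatives of matrilins, olfactomedins and periostin, TGFBI, a periostin relative, rose by 0.51 and MATN3 by 0.45 in SF539, and MATN1 fell by 0.56 in SNB19 (limma, adjusted p = 0.00381, 0.0484 and 0.000836). MATN3 lost its call without any 1 of 10 arrays (0.0593 to 0.203) and with median centring, array weights or every probe set on its own (0.0506 to 0.0712), and MATN1 when its probe sets were averaged (adjusted p = 0.106). The other relatives did not pass in either line. All SF539 group means of MATN3 (2.82 to 3.29) lay below the lower quartile.

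The list of collagen receptors also held receptors of other matrix molecules, such as ITGAV, ITGB3 and CD44. Of its 11 measured genes, 3 rose and 1 fell in SNB19, and 2 rose and 2 fell in SF539. ITGAV, the alpha V integrin chain, rose by 1.38 in SNB19 and 0.71 in SF539 (limma, adjusted p = 0.000232 and 0.0319). ITGA2, the chain of a collagen-binding integrin, fell by 0.81 in SNB19 and by 1.01 in SF539 (limma, adjusted p = 0.00113 and 0.00178), the latter not without both SF539 siRNA#2 arrays (0.0551). ITGB3 and ITGB1 rose by 1.96 and 0.67 in SNB19 (limma, adjusted p = 0.000787 and 0.00109), ITGB1 not with averaged probe sets (0.14). ITGA10 rose by 0.94 in SF539 (limma, adjusted p = 0.0417). ITGAV and ITGA10 lost their SF539 calls without any 1 of 10 arrays (0.0541 to 0.152 and 0.0577 to 0.207), and ITGA10 also with median-centred arrays (0.0524) and without both SF539 siRNA#2 arrays (0.163).

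The TGF-beta pathway controls collagen transcription in many cells. Of 21 measured genes of it, 3 rose and 7 fell in SNB19, and none rose and 2 fell in SF539. The receptors TGFBR3 and TGFBR2 fell by 1.94 and 1.08 in SNB19 (limma, adjusted p = 1.38e-05 and 3.28e-05), while INHBA, an activin subunit, fell by 1.06 in SNB19 and 0.79 in SF539 (limma, adjusted p = 0.000171 and 0.00471). TGIF1, a repressor of the pathway, fell by 0.64 in SNB19 and 0.41 in SF539 (limma, adjusted p = 0.000436 and 0.0206), the SF539 call being lost without SF539 scramble replicate 1 or either siRNA#1 array (0.0525 to 0.169).

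Of 13 collagenases and inhibitors, 4 fell and none rose in SNB19, and 2 rose and 1 fell in SF539. MMP13, MMP3 and the collagen-degrading cathepsin CTSK fell by 1.70, 0.85 and 0.67 in SNB19 (limma, adjusted p = 0.001, 0.000871 and 0.00164). In SF539 TIMP3, an inhibitor of metalloproteinases, rose by 1.58 and the gelatinase MMP2 by 1.29 (limma, adjusted p = 0.000583 and 0.00288).

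**Figure D5:**
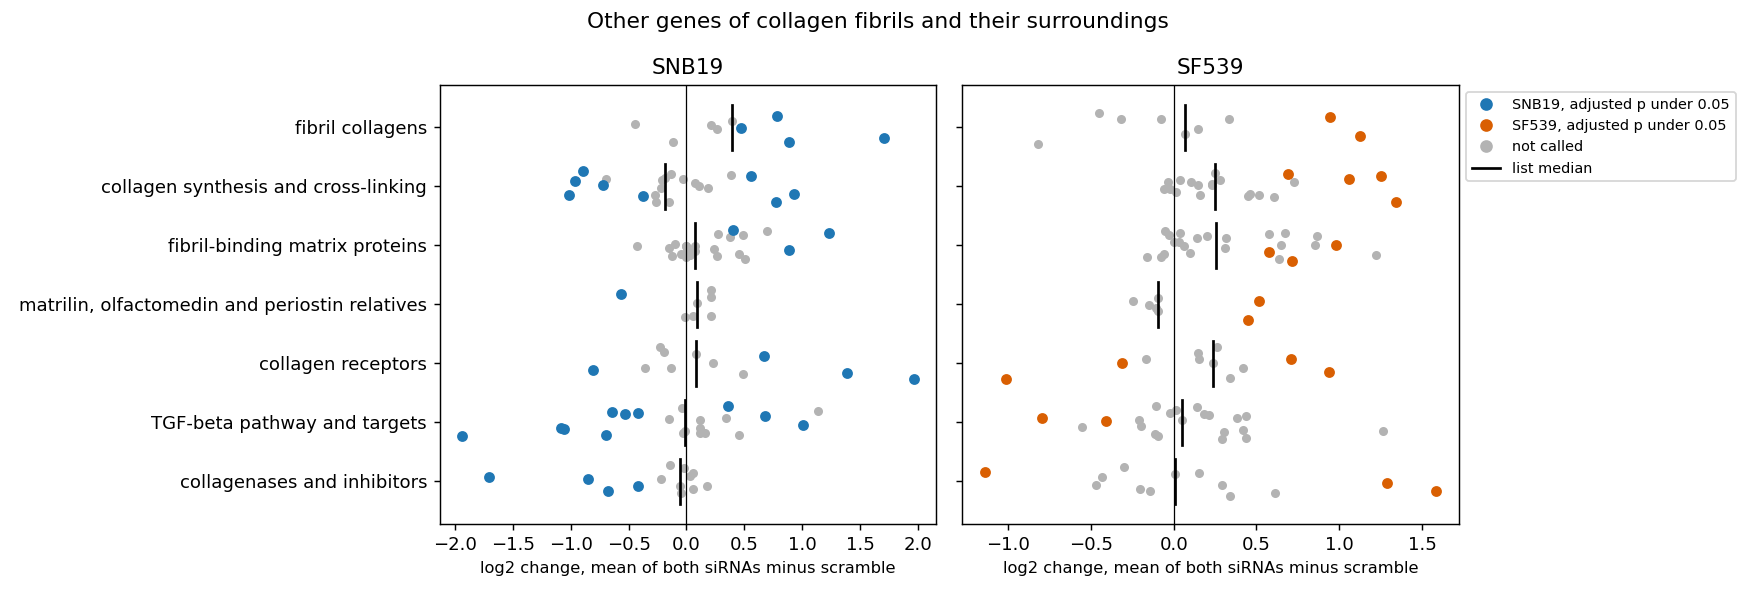
Log2 change in the mean of both siRNAs against scramble (x axis) for the genes of 7 lists (y axis, points spread vertically for legibility), SNB19 left and SF539 right, coloured where limma's adjusted p was under 0.05, with a line at each list's median. SF539 has 15 coloured points right of 0 and 5 left of it, SNB19 16 and 18.

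Markers of other cell types were set beside these values. Of the 10 fibroblast and pericyte markers, all measured, the summed signal in SF539 was 12.04 to 12.22 with scramble, 12.32 to 12.35 with siRNA#1 and 12.55 to 12.59 with siRNA#2, with replicate 1 the higher of the siRNA#2 arrays. All 10 were above the lower quartile in the SF539 groups. In SF539 2 of the 10 rose and 1 fell in the mean of both siRNAs, and the median change of the list was -0.03. S100A4 rose by 1.13 and PDGFRB, a receptor of pericytes and fibroblasts, by 1.49, while THY1, a surface protein of fibroblasts, fell by 0.69 (limma, adjusted p = 0.000179, 0.0071 and 0.00955). ANPEP, the brightest of the list with scramble, read 10.97, 10.56 and 9.88 over scramble, siRNA#1 and siRNA#2 (limma, adjusted p = 0.125 for the mean of both siRNAs and 0.048 for siRNA#2). With siRNA#2 by itself 3 of the 10 rose and 2 fell, where 8.66% and 6.50% of all genes did. PDGFRA was among those that rose, by 1.61 (limma, adjusted p = 0.00543), and changed by 0.06 with siRNA#1 (limma, adjusted p = 0.954). In SNB19 that sum was 12.36 to 12.59. No leukocyte marker exceeded 6 on a group mean, nor any endothelial marker apart from KDR at 6.08 in SNB19 siRNA#1. Of the 7 epithelial markers, 2 exceeded 6 in SF539 with scramble siRNA, and KRT18 was the brightest at 9.89. The part of these markers in the collagen values was not tested.

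The genes nearest to the mean of the 3 collagens over the 6 SF539 arrays, by root mean square distance of the centred log2 values, were ARG2 at 0.188, CCN4 at 0.205, SCD at 0.229, NID2 at 0.259 and VCAM1 at 0.269, where a gene without change would lie at 1.26. The matrix proteins of the 7 genes lay at 0.285 for MATN2, 0.328 for OLFML2B and 0.51 for OLFML2A, and POSTN at 1.17 was the farthest. Over all 12 arrays the nearest were INHBE at 0.345, CCN4 at 0.397, MYL9 at 0.398, GPR183 at 0.409 and NID2 at 0.417, against 1.98 for a gene without change. Of the 7 genes COL1A1 lay at 0.368, OLFML2B at 0.507 and POSTN at 1.23, while COL3A1 at 2.16, COL1A2 at 2.41, OLFML2A at 2.71 and MATN2 at 3.05 lay farther than a gene without change. Over 12 arrays the mean of the 3 collagens thus followed COL1A1 and not COL1A2 or COL3A1, whose levels differ between the lines in opposite directions. CCN4, a secreted matricellular protein, and NID2, of basement membranes, were in both sets. These are descriptions over arrays that share groups.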

How the data were processed

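The deposited table held log2 values of 16376 probe sets on 12 arrays, made by the authors. The software given, per the submitters' processing notes, is Partek, while how background was corrected, arrays normalized and probes summarised, and on which genome build, is not given in the sources used here. Of the probe sets 14038 had 1 gene, 792 several and 1546 none. Symbols were matched through Entrez identifiers to RefSeq (GRCh38.p14) for 14028. For each of the resulting 8545 genes the probe set with the highest mean over the 12 arrays was used.

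All 12 arrays entered 1 fit of 6 group means with limma 3.58.1 in R 4.3.3 (lmFit and eBayes; degrees of freedom 6 residual, 3.65 prior) and two-sided tests, with Benjamini-Hochberg adjustment at 0.05 over all genes. Secondary probe sets come from a fit over all probe sets. The test was checked on simulated data. Errors of changes are SE of the fit, pooled over the 6 groups, so they do not show a wider spread in 1 of them. Precision is limited by the small number of arrays.

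The 7 genes, the gene lists and the tests were chosen with earlier results of these data known. The 7 genes have no test in SF539, nor POSTN and OLFML2A in either line. Named other genes are up to 3 per list and line with the smallest p among called genes whose siRNAs share a sign, and the 5 genes nearest to the collagen mean over 12 and over 6 arrays. Marker genes other than VIM were named after their values were seen. Tried as alternatives were quantile normalization, median centring, a replicate block, each line fitted alone, leaving out the dimmest 40% of genes, probe sets averaged or kept apart, a trended robust prior, array weights, and each array left out, whose lone partner is assumed to vary like the other groups. Leaving out both SF539 siRNA#2 arrays was chosen after seeing the data. Plots used matplotlib 3.10.9.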

Additional observations from a re-analysis of the deposited data

Results flagged for a closer look

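In 18 of the 33 named genes of the matrix lists the change with PARK2 siRNAs differed between the lines in limma's test of the difference itself, a comparison in which 19.1% of all genes were called. The values are SF539 minus SNB19, from the mean of both siRNAs against scramble, with limma's adjusted p. The difference was positive, higher in SF539, for MMP13 at 2.31 (adjusted p = 0.0028), TGFBR3 at 1.84 (adjusted p = 0.000422), TIMP3 at 1.63 (adjusted p = 0.00143), COL16A1 at 1.57 (adjusted p = 0.0184), ADAMTS2 at 1.29 (adjusted p = 0.0372), MMP2 at 1.23 (adjusted p = 0.0101), PCOLCE at 1.16 (adjusted p = 0.0415), TGFBR2 at 1.06 (adjusted p = 0.000838), PLOD1 at 0.98 (adjusted p = 0.00642), ADAMTS3 at 0.95 (adjusted p = 0.00341), FBLN1 at 0.84 (adjusted p = 0.00429) and FBN2 at 0.57 (adjusted p = 0.0181). It was negative for ITGB3 at -1.72 (adjusted p = 0.0203), COL14A1 at -1.37 (adjusted p = 0.00826), TLL2 at -0.95 (adjusted p = 0.00425), TNC at -0.56 (adjusted p = 0.0471), ITGB1 at -0.52 (adjusted p = 0.0435) and CRTAP at -0.41 (adjusted p = 0.0207).

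The procollagen proteinases ADAMTS2 and ADAMTS3, the C-proteinase enhancer PCOLCE and the fibril-binding FBLN1 and FBN2 changed by 0.57 to 1.34 in SF539 and by -0.13 to 0.19 in SNB19. The receptors TGFBR2 and TGFBR3 changed by -1.08 and -1.94 in SNB19 and by -0.02 and -0.09 in SF539. For TIMP3 the siRNAs went opposite ways in SNB19, by 0.65 with siRNA#1 and -0.74 with siRNA#2 (limma, adjusted p = 0.0362 and 0.0182). Its SNB19 mean of -0.04, used in the line difference, averages these 2 changes. COL14A1, PLOD1, ADAMTS3, TGFBR3, TGFBR2, MMP13 and TIMP3 passed under every alternative that gave a value, 7 of the 18. With 1 array left out, ITGB1 and TNC lost the call without any 1 of 10 arrays, PCOLCE without any 1 of 9, ADAMTS2 without any 1 of 8, ITGB3 and CRTAP without any 1 of 4, COL16A1 without any 1 of 3, FBN2 without either of 2 and MMP2 without SNB19 scramble replicate 1 (0.0548). With probe sets averaged the differences of TLL2 (0.251), FBLN1 (0.0515), FBN2 (0.158) and ITGB1 (0.517) did not pass, and that of TNC turned. FBN2, PCOLCE, TNC and ITGB1 did not pass with quantile normalization (0.0515 to 0.0818), nor FBN2, PCOLCE and ADAMTS2 with median centring (0.0602 to 0.0744), TNC and ITGB1 with every probe set on its own (0.0535 and 0.0501), or ADAMTS2 without both SF539 siRNA#2 arrays (0.118). The SF539 group means of COL14A1 (3.02 to 3.56) and TLL2 (3.36 to 3.56) lay below the lower quartile, so a change there could hardly show. MMP13 in SF539 read 3.30 with scramble and 3.10 with siRNA#1, also below it, so a fall like that of SNB19 could hardly show. Its SF539 change was -0.21 with siRNA#1 and 1.43 with siRNA#2. For the 7 genes first described the difference between lines was not tested.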

How the results depend on the processing

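Of the 5 collagen and matrix genes tested in SNB19, 1 passed with all arrays, 3 with the SNB19 arrays alone, 2 with array weights, 3 without both SF539 siRNA#2 arrays and 0 to 3 when 1 array was left out. The median change of the 7 genes in SF539, 2.20, was 1.34 without both siRNA#2 arrays and 1.64 to 2.51 with 1 array left out. The other matrix genes called in SNB19, 34 of 106, became 53 with the SNB19 arrays alone, 52 without both SF539 siRNA#2 arrays and 24 to 52 with 1 array left out. In SF539, 20 became 5 with the SF539 arrays alone and 11 to 56 with 1 array left out. The replicate gap of the 14 probe sets in SF539 siRNA#2 had a median of 1.30. TNC in SNB19 and its difference between lines reversed to -0.046 and 0.15 when probe sets were averaged, and the COL5A1 difference between lines to -0.36 without both SF539 siRNA#2 arrays. POSTN was left out with the dimmest 40% of genes.

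Over all genes, same-numbered arrays did not deviate together (correlations of -0.18 to 0.109 over 15 pairs of groups). The labels do not say whether the numbers pair arrays. A correlation over all genes cannot exclude a pairing that touches few of them. With the replicate block 33 matrix genes were called in SNB19 and 18 in SF539, where MATN3 (limma, adjusted p = 0.0669) and ITGA10 (0.0517) fell short, as did the line differences of PCOLCE (0.0531), TNC (0.0593) and ITGB1 (0.0501). The cause of these shifts was not tested. Low signal limits POSTN outside SF539 siRNA#2 and COL3A1 in SNB19. It also limits MATN3 in SF539 (group means of 2.82 to 3.29) and COL2A1 in SNB19 (3.61 to 4.17). With siRNA#1 and siRNA#2 in SNB19, MMP13 read 2.99 and 3.05 and TGFBR3 4.12 and 3.73, so the size of their falls is bounded.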
